A study of Rattus norvegicus with 325 samples.

Results

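The genes described here are Gdf15, Fgf21, Atf3, Atf4, Ddit3, Trib3, Asns and Chac1, which together stand for the integrated stress response and for the mitokines that are released when it is active. They were taken by symbol from tables of raw read counts per gene, in which each of the 8 symbols stood on 1 line among 17315 distinct symbols. The tables came from bulk RNA-seq of 4 muscles of untreated male Sprague Dawley rats at 7 ages (6, 9 and 12 months, then 18, 21, 24 and 27), namely the diaphragm (83 libraries), the gastrocnemius (73), the soleus (84) and the tibialis anterior (85). There were 12 libraries at each age in each muscle, except the diaphragm at 9 months with 11, the tibialis anterior at 21 months with 13, and the gastrocnemius, whose groups held 10, 12, 11, 11, 9, 9 and 11 libraries in order of age. Rats of 1 age were collected on 1 day, so age and collection day cannot be told apart, and which libraries share an animal is not given in the labels. The sample numbers fell into 3 series, of which one held the gastrocnemius alone and another the 12-month libraries of the other muscles with 1 library of 21 months each, so these contrasts cannot be told apart from the series. In bulk tissue, fewer cells of a type and less RNA per cell cannot be told apart either.

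The integrated stress response begins when kinases that sense amino acid shortage, unfolded protein, haem shortage, viral RNA or mitochondrial trouble phosphorylate the translation factor eIF2alpha. General protein synthesis then slows, while the messenger RNA of Atf4 is translated more, so the amount of Atf4 transcript and the activity of its protein need not move together. ATF4 protein switches on genes for amino acid synthesis and transport, further transcription factors such as Ddit3 (CHOP) and Atf3, the pseudokinase Trib3, which restrains the response, and Chac1, which degrades glutathione. Muscle fibres under mitochondrial stress also transcribe the secreted factors Gdf15 and Fgf21, which act on appetite and metabolism elsewhere in the body.

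The stretch of promoter that ATF4 can bind together with C/EBP partners is shown here for the members in which its letters occurred. Both strands of every promoter in the RefSeq table (GRCr8, 250 bases before to 50 after a gene's start) were searched for the letters TGATGCAA (TTGCATCA on the other strand) and for the looser TGATGNAA, of which every TGATGCAA is also a match. Promoters of 7 of the 8 members were in the table, and Atf3 had 0. In the sequences below, which are the 250 bases before the start in the direction of the gene, the capitals mark the match.
Chac1: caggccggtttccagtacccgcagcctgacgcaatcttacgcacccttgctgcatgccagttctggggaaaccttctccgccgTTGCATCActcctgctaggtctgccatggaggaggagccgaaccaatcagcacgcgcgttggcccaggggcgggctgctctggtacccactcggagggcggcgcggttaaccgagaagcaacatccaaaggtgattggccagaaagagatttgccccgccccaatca
Fgf21: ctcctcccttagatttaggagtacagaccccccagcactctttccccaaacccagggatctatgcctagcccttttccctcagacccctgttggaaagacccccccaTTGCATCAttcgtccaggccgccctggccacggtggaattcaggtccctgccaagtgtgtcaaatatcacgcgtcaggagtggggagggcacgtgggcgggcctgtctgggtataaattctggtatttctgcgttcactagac
Trib3: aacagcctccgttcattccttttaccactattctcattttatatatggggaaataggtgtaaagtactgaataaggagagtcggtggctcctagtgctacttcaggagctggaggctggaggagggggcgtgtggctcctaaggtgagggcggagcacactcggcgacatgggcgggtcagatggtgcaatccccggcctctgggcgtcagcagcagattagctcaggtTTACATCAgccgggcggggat
The gene lies on the plus strand for Chac1 and on the minus strand for Fgf21 and Trib3. TTGCATCA stood at -167 to -160 in Chac1 and at -143 to -136 in Fgf21, counted from the start, and TTACATCA, a match to the looser letters only, at -21 to -14 in Trib3. Of 33469 promoters, 266 (0.795%) held TGATGCAA and 1332 (3.98%) held TGATGNAA. No match was found in the promoters of the other members searched. The match is a description of letters, and no binding was measured. Chac1 and Fgf21, the pair that shared the 8 letters, are described below with changes of opposite sign in the tibialis anterior.

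Libraries held 17.6 M to 85.3 M counts (median 31.9 M, where M is mega). Levels are given as CPM, which sets each count against the TMM-scaled total of its library, and they are not compared between genes, because no gene length was used. The muscle labels were checked on myosin heavy chains: at 6 months the median level of Myh7, the slow isoform, was 52940 CPM (soleus) and 1801 CPM (tibialis anterior), while that of Myh4, a fast isoform, was 9.38 and 76450 CPM. Some libraries stood apart. Summed transcripts of 9 hepatocyte markers exceeded 100 CPM in 6 of 12 soleus libraries at 6 months and in 2 of 12 at 27 months (up to 2364 CPM). Other soleus libraries over 100 CPM numbered 2 at 12, 7 at 18 and 5 at 21 months. In the diaphragm there were 3 at 9 months and 1 at 24. The gastrocnemius had 1 at 27 months, and the tibialis anterior 1, 3 and 1 at 18, 21 and 27 months. The soleus changes from 6 to 27 months were also fitted without the libraries over 100 CPM. In that fit Ddit3 (-0.45, adjusted p = 0.0045) and Atf3 (1.96, adjusted p = 0.0071) kept their side of the threshold, and Trib3 (1.43, adjusted p = 0.086) was again not called. Values for the other members stand with their results. Levels, correlations and differences between muscles were not refitted without these libraries. The diaphragm library of 6 months, replicate 0, had a summed level of 9 immediate-early genes of 1447 CPM, and diaphragm results that rest on it are given with and without it. Replicates are taken from the labels as separate samples of a group.

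Atf4, the transcription factor at the centre of the response, fell with age in the 3 limb muscles. In the tibialis anterior its level ran from 384.5 to 431.2 CPM at 6 months (lowest to highest, median 396.3, n = 12) and from 115.7 to 294.0 CPM at 27 months (median 165.3, n = 12). In the gastrocnemius it ran from 275.5 to 341.0 CPM (median 309.0, n = 10) and then from 105.9 to 222.5 CPM (median 163.7, n = 11). In the soleus the range was 276.1 to 339.1 CPM (median 325.8, n = 12) at 6 months and 154.4 to 273.3 CPM (median 218.1, n = 12) at 27 months. Every 27-month library of these muscles lay below the lowest 6-month library. Levels at the 2 ages did not overlap in 19.9% of all genes tested for the tibialis anterior, 14.2% for the gastrocnemius and 5.62% for the soleus. The fitted log2 change from 6 to 27 months was -1.22 (SE 0.11, limma-voom adjusted p = 7.7e-17), -0.98 (SE 0.10, adjusted p = 4.0e-14) and -0.59 (SE 0.07, adjusted p = 2.2e-12) in turn. The soleus change is close to the 1.5-fold threshold (0.585 on the log2 scale) and fell short of it without 27-month replicate 0 (-0.58), 6 (-0.58) or 8 (-0.55), under total-count scaling (-0.45), and without the libraries high in hepatocyte markers (-0.55).

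In the diaphragm Atf4 fell less. Its level ran from 292.7 to 359.7 CPM (median 308.6, n = 12) at 6 months and from 226.9 to 334.1 CPM (median 267.0, n = 12) at 27 months, so that the ages overlapped. The log2 change was -0.24 (SE 0.05, limma-voom adjusted p = 1.0e-05), past the p threshold and short of 1.5-fold. In the soleus the log2 change was already -0.22 at 18 months (SE 0.07, adjusted p = 0.0098). Of the 12 soleus libraries at 18 months, 7 were high in hepatocyte markers, and this change is not given without such libraries. In the gastrocnemius and tibialis anterior the fall was steepest after 18 months. Medians of the tibialis anterior were 396.3, 408.4, 415.8, 415.0, 353.5, 257.9 and 165.3 CPM in order of age, and in the gastrocnemius 309.0, 301.8, 296.7, 271.4, 249.2, 180.3 and 163.7 CPM. By 24 months the log2 change was -0.59 (SE 0.11) in the tibialis anterior and -0.78 (SE 0.10) in the gastrocnemius, and in the tibialis anterior that between 24 and 27 months was -0.62 (SE 0.11, adjusted p = 2.9e-06).

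**Figure D1:**
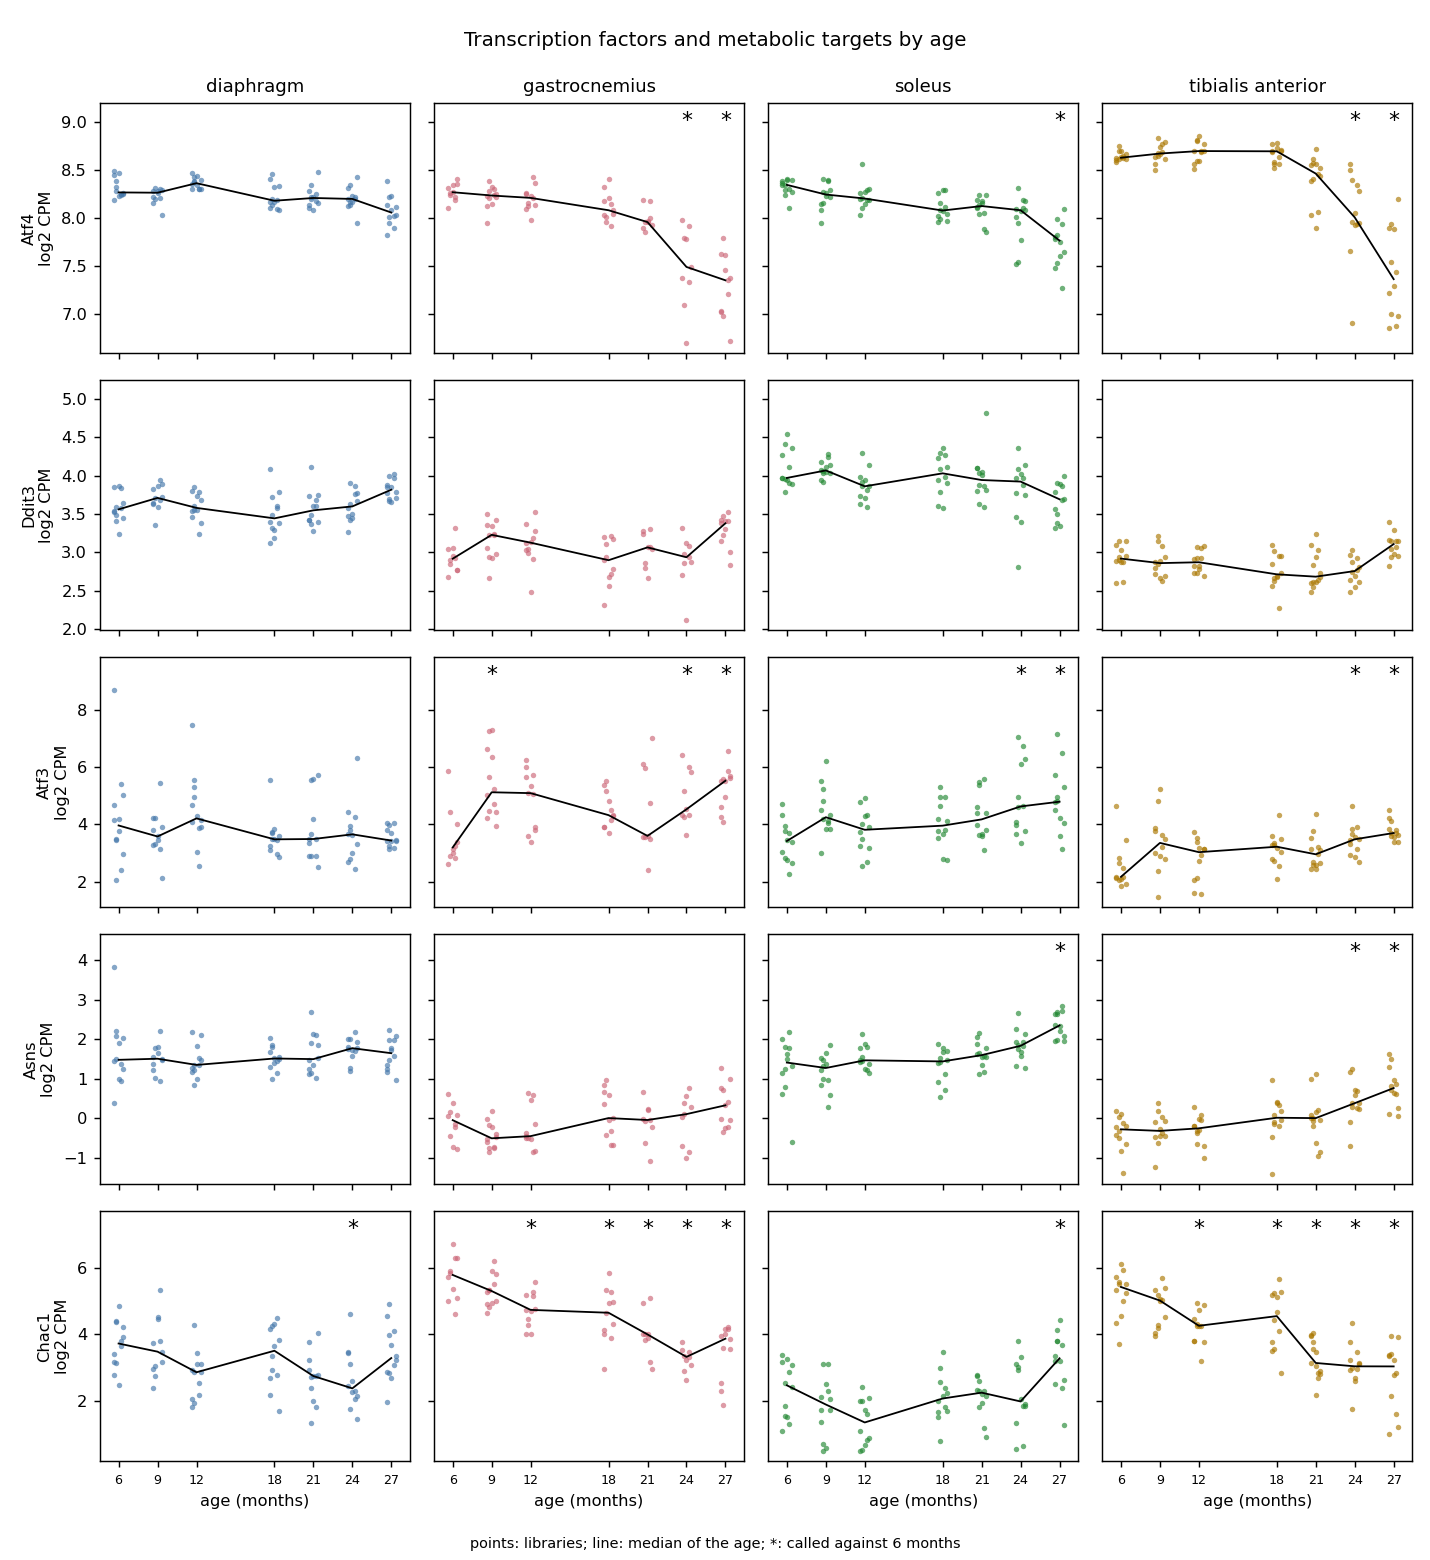
Level (log2 CPM) of Atf4, Ddit3, Atf3, Asns and Chac1 against age in months, 1 column per muscle; points are libraries, lines join the medians, and a star marks an age that differed from 6 months by limma-voom (adjusted p below 0.05 and over 1.5-fold). Atf4 was called lower at 24 and 27 months in the gastrocnemius and tibialis anterior and at 27 months in the soleus, Chac1 fell from 12 months on in the gastrocnemius and tibialis anterior, and Asns rose in the soleus and tibialis anterior.

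Ddit3, which encodes CHOP, a transcription factor that promotes cell death under lasting stress, moved little. At 6 months its median level was 11.8 CPM in the diaphragm (range 9.40 to 14.6, n = 12), 7.53 in the gastrocnemius (6.39 to 9.95, n = 10), 15.7 in the soleus (13.8 to 23.3, n = 12) and 7.54 in the tibialis anterior (6.06 to 8.86, n = 12). At 27 months the medians were 14.1 CPM (range 12.6 to 16.2, n = 12), 10.4 (7.13 to 11.6, n = 11), 12.9 (9.92 to 15.9, n = 12) and 8.61 (7.06 to 10.6, n = 12). The ages overlapped in every muscle. The log2 changes were 0.23 (SE 0.08), 0.37 (SE 0.11), -0.45 (SE 0.10) and 0.18 (SE 0.07), with limma-voom adjusted p of 0.014, 0.0023, 0.00016 and 0.029, none of them past 1.5-fold. The sign was negative in the soleus, which differed from each other muscle by the tests of the difference given below.

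Atf3, a stress and immediate-early transcription factor, was spread widely in the diaphragm at 6 months. There it ran from 4.14 to 408.2 CPM (median 15.7, n = 12), the highest value being the library with high immediate-early transcripts, and at 27 months from 8.76 to 16.4 CPM (median 10.8, n = 12). The log2 change of -0.71 (SE 0.44, limma-voom adjusted p = 0.18) did not pass the test and was -0.21 without that library. In the limb muscles Atf3 was higher at 27 months. The gastrocnemius held 6.17 to 57.5 CPM (median 9.12, n = 10) at 6 months and 17.0 to 94.2 CPM (median 45.8, n = 11) at 27 months. The soleus held 4.76 to 26.2 CPM (median 10.7, n = 12) and then 8.85 to 141.2 CPM (median 27.6, n = 12). The tibialis anterior held 3.56 to 24.8 CPM (median 4.48, n = 12) and then 10.3 to 22.3 CPM (median 12.9, n = 12). The ages overlapped, but all 11 gastrocnemius libraries, 11 of 12 soleus libraries and all 12 tibialis anterior libraries of 27 months lay above the 6-month median. The log2 changes were 1.80 (SE 0.46, adjusted p = 0.00060), 1.498 (SE 0.41, adjusted p = 0.0013) and 1.27 (SE 0.28, adjusted p = 3.1e-05).

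The rise of Atf3 went along with other immediate-early genes. Of 9 such genes (Fos, Fosb, Junb, Jun, Egr1, Ier2, Btg2, Nr4a1 and Zfp36), the gastrocnemius had 4 called higher and 1 lower at 27 months, the soleus 3 and 0, the tibialis anterior 3 and 1, and the diaphragm 0 and 1. Over all genes tested, 22.8%, 15.0%, 27.6% and 7.52% were called in that order. Their summed level had medians of 732.9 CPM (561.2 to 1575) at 6 and 940.2 CPM (691.4 to 1349) at 27 months in the gastrocnemius. The medians were 444.5 (334.0 to 1143) and 689.3 (352.7 to 1152) in the soleus, and 544.5 (460.9 to 1194) and 684.7 (547.1 to 933.0) for the tibialis anterior. A covariate was made as the log2 of the summed counts of these 9 genes, set against the library total without TMM scaling. With this covariate the log2 change of Atf3 was 0.63 in the gastrocnemius (limma-voom adjusted p = 0.053). It was 0.47 for the soleus and 0.31 for the tibialis anterior (adjusted p = 0.23 for both), so that all 3 calls were lost. Total-count scaling moved the median change over all genes in the limb muscles, as given below. The covariate may share that shift, and its part in the lost calls was not tested. With the covariate Atf4 in the tibialis anterior also fell short of 1.5-fold at 24 months (-0.56) and between 24 and 27 months (-0.55). Its call at 27 against 6 months was kept. In the gastrocnemius Atf3 was already higher at 9 months (log2 change 1.93, SE 0.45, adjusted p = 0.024), with no call at 12, 18 or 21 months, and with the covariate the 9-month change was 0.70 (adjusted p = 0.52).

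Chac1, the glutathione-degrading enzyme and a classic ATF4 target, had the most divided response. It fell in the gastrocnemius, where its level ran from 24.2 to 104.0 CPM (median 55.1, n = 10) at 6 months and from 3.67 to 18.6 CPM (median 14.6, n = 11) at 27 months. It fell in the tibialis anterior too, from a range of 13.03 to 68.8 CPM (median 42.9, n = 12) to one of 1.995 to 15.4 CPM (median 8.29, n = 12). In the gastrocnemius the ages did not overlap, and in the tibialis anterior 10 of 12 old libraries lay below the lowest young one. The log2 changes were -2.20 (SE 0.28, limma-voom adjusted p = 3.0e-10) and -2.52 (SE 0.31, adjusted p = 1.6e-11). In both muscles the change was already past the threshold at 12, 18, 21 and 24 months, with log2 values of -0.94, -1.09, -1.66 and -2.40 in the gastrocnemius and -1.02, -0.74, -1.93 and -2.19 in the tibialis anterior. The 12-month change of the tibialis anterior cannot be told apart from the series of sample numbers.

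In the soleus Chac1 rose instead, from a range of 2.15 to 10.4 CPM (median 5.54, n = 12) to one of 2.43 to 21.4 CPM (median 9.73, n = 12). The ages overlapped, and the log2 change was 0.90 (SE 0.28, limma-voom adjusted p = 0.0049) and against 24 months the rise was 1.05 (SE 0.30, adjusted p = 0.0037). The call was lost with the immediate-early covariate (0.54, adjusted p = 0.13) and without the libraries high in hepatocyte markers (0.56, adjusted p = 0.19). In the diaphragm the level at 6 months was 5.61 to 29.0 CPM (median 13.2, n = 12) and at 27 months 3.87 to 29.9 CPM (median 9.79, n = 12), with a log2 change of -0.16 (SE 0.29, adjusted p = 0.69). In that muscle it was lower at 24 than at 6 months (-1.03, SE 0.33, adjusted p = 0.032) and higher at 27 than at 24 months (0.87, SE 0.33, adjusted p = 0.032), a call that edgeR (0.76, adjusted p = 0.061) and DESeq2 (0.75, adjusted p = 0.060) did not make.

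Asns, asparagine synthetase and another ATF4 target, rose in the soleus and the tibialis anterior. In the soleus it ran from 0.647 to 4.52 CPM (median 2.65, n = 12) at 6 months and from 3.87 to 7.11 CPM (median 5.09, n = 12) at 27 months, with 8 of 12 old libraries above the highest young one. It ran in the tibialis anterior from 0.366 to 1.12 CPM (median 0.812, n = 12) and then from 1.02 to 3.08 CPM (median 1.69, n = 12), with 10 of 12 above. The log2 changes were 1.06 (SE 0.16, limma-voom adjusted p = 2.7e-08) and 1.18 (SE 0.21, adjusted p = 4.3e-07). Asns was already 0.84 higher on the log2 scale at 24 months in the tibialis anterior (SE 0.21, adjusted p = 0.00044). Without the libraries high in hepatocyte markers the soleus change was 1.08 (adjusted p = 4.4e-05).

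In the gastrocnemius the level of Asns was 0.567 to 1.51 CPM (median 0.954, n = 10) at 6 months and 0.775 to 2.42 CPM (median 1.24, n = 11) at 27 months. The log2 change of 0.49 (SE 0.22, limma-voom adjusted p = 0.048) was short of 1.5-fold and passed it without 27-month replicate 1 (0.60, adjusted p = 0.017). In the diaphragm the level was 1.31 to 14.1 CPM (median 2.77, n = 12) and then 1.95 to 4.73 CPM (median 3.13, n = 12). The log2 change was -0.08 (SE 0.20, adjusted p = 0.78) and turned to 0.22 (adjusted p = 0.29) without 6-month replicate 0. Thus from 6 to 27 months the transcript of Atf4 and that of its target Asns had changes of opposite sign in the soleus and tibialis anterior. Chac1 and Atf4 were both lower at 27 months in the gastrocnemius and tibialis anterior. There Chac1 was already called lower at 12 months (-0.94 and -1.02), when the log2 change of Atf4 was -0.07 and 0.04. In the tibialis anterior the contrast of 12 with 6 months cannot be told apart from the series of sample numbers. In the soleus Chac1 rose and Atf4 fell, and neither was called without the libraries high in hepatocyte markers.

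Trib3, the pseudokinase that feeds back on the response, was barely detected. It passed the filter on low counts in the soleus alone, where its level ran from 0 to 0.475 CPM (median 0.184, n = 12) at 6 months and from 0.0362 to 0.891 CPM (median 0.421, n = 12) at 27 months, a log2 change of 0.95 (SE 0.48, limma-voom adjusted p = 0.091). Without 27-month replicate 9 the change was 1.15 (adjusted p = 0.029). In a fit with no filter on low counts, Trib3 was 0.91 higher on the log2 scale in the gastrocnemius (SE 0.34, adjusted p = 0.020, medians 0.161 and 0.233 CPM). The difference was 1.40 for the tibialis anterior (SE 0.49, adjusted p = 0.011, medians 0.0401 and 0.124 CPM). For the diaphragm it was 0.12 (SE 0.37, adjusted p = 0.83, medians 0.119 and 0.126 CPM). These values rest on few counts per library. In the soleus Trib3 passed the filter largely through older libraries, given its low median at 6 months.

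Gdf15, a circulating cytokine of the TGF-beta family that lowers appetite, rose in the gastrocnemius. Its counts per library there were 0 to 10 at 6 months (44 in all over 10 libraries) and 1 to 42 at 27 months (224 in all over 11), which is 0 to 0.273 CPM (median 0.101) and 0.0417 to 1.102 CPM (median 0.483). All but 1 of the 11 old libraries lay above the highest young one. The log2 change was 2.13 (SE 0.41, limma-voom adjusted p = 7.9e-06), after 1.53 (SE 0.44, adjusted p = 0.0091) at 21 and 1.87 (SE 0.44, adjusted p = 0.00023) at 24 months. With at most 10 counts at 6 months, the gene passed the filter through older libraries, so its place among the genes tested was itself tied to its rise.

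In the soleus Gdf15 was spread widely within ages. At 9 months its median was already 0.645 CPM (0.149 to 1.87, n = 12), a log2 change of 1.81 (SE 0.53, limma-voom adjusted p = 0.082) that was called with no filter (1.77, adjusted p = 0.032). Its level ran from 0 to 0.829 CPM (median 0.207, n = 12) at 6 months and from 0.135 to 1.56 CPM (median 0.507, n = 12) at 27 months. With that low median at 6 months, the gene passed the filter largely through older libraries, as in the gastrocnemius. The log2 change at 27 months was 1.503 (SE 0.54, limma-voom adjusted p = 0.016), and it was 1.17 (adjusted p = 0.090) with the immediate-early covariate and 0.70 (adjusted p = 0.40) without the libraries high in hepatocyte markers, so the call was lost under both. In the diaphragm the level was 0 to 0.426 CPM (median 0.188, n = 12) and then 0.0956 to 0.724 CPM (median 0.361, n = 12), a log2 change of 0.79 (SE 0.37, adjusted p = 0.078) that was called without 27-month replicate 10 (0.87, adjusted p = 0.049) or 11 (0.89, adjusted p = 0.048). At 24 months the diaphragm change was 1.09 (SE 0.37, adjusted p = 0.043), and with no filter on low counts it was 1.15 (adjusted p = 0.069), so the call was lost. There too the counts at 6 months were low (0 to 15 per library) and higher at older ages. In the tibialis anterior the gene did not pass the filter. Its counts were 0 to 6 at 6 months (28 in all) and 2 to 25 at 27 months (125 in all), 11 of 12 old libraries lay above the highest young one, and with no filter the log2 change was 2.06 (SE 0.49, adjusted p = 0.00018).

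Fgf21, a hormone of the fibroblast growth factor family that muscle transcribes under mitochondrial stress, passed the filter in no muscle and stood out in the tibialis anterior. Its counts there were 0 to 6 per library at 6 months (median 2, 24 in all) and 3 to 43 at 27 months (median 10, 149 in all), which is 0 to 0.229 CPM (median 0.0463) and 0.108 to 0.913 CPM (median 0.288). All 12 old libraries lay above the young median and 7 of 12 above the highest young library. With no filter the log2 change was 2.58 (SE 0.45, limma-voom adjusted p = 7.3e-07). The same fit gave 0.86 for the diaphragm (SE 0.43, adjusted p = 0.12, medians 0.0869 and 0.144 CPM) and 0.72 for the gastrocnemius (SE 0.52, adjusted p = 0.26, medians 0.0704 and 0.125 CPM). It gave -0.12 for the soleus (SE 0.61, adjusted p = 0.89, medians 0.0842 and 0.0340 CPM). In the liver, Fgf21 is a major hepatocyte product. The tibialis anterior library of 27 months with the most hepatocyte transcripts (375.8 CPM summed) had the lowest Fgf21 of its group, 0.108 CPM, and the other 11 libraries held 0.200 to 3.17 CPM of hepatocyte transcripts. In the soleus at 6 months the libraries with the most hepatocyte transcripts (1741 and 674.2 CPM) had the highest Fgf21 of their group (0.291 and 0.218 CPM), while at 27 months those with the most (2364 and 521.7 CPM) had 0. The part of hepatocyte transcripts in the level of Fgf21 was not tested.

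**Figure D2:**
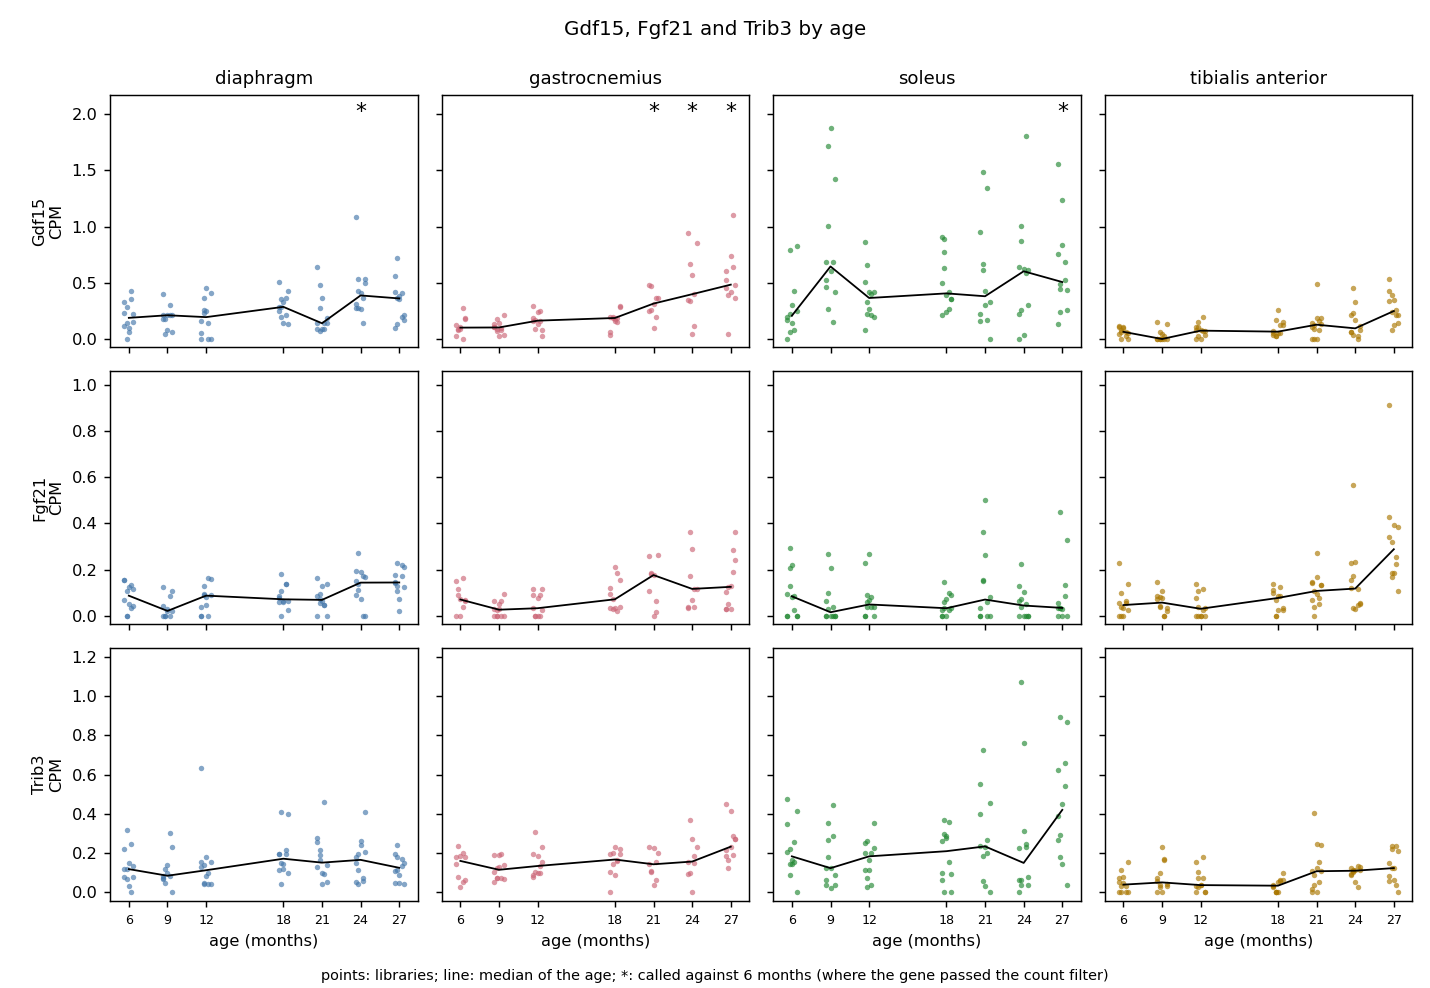
Level (CPM) of Gdf15, Fgf21 and Trib3 against age in months, 1 column per muscle; points are libraries and lines join the medians. Gdf15 in the gastrocnemius rose from a median of 0.101 CPM at 6 months to 0.483 CPM at 27 months, and Fgf21 in the tibialis anterior from 0.0463 to 0.288 CPM.

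Transcripts of other cells changed with age as well. Macrophages also transcribe Gdf15, and 9 of 9 macrophage markers were called higher at 27 months in the gastrocnemius and in the tibialis anterior, 2 of 9 in the soleus and 0 of 9 in the diaphragm. Their summed level was 102.2 to 165.0 CPM at 6 and 197.6 to 336.5 CPM at 27 months in the gastrocnemius, and 46.1 to 72.2 and 102.5 to 206.9 CPM in the tibialis anterior. It was 189.2 to 310.2 and 306.2 to 426.7 CPM in the soleus, and 159.4 to 272.9 and 230.7 to 363.6 CPM in the diaphragm. None of the 9 markers was at 0 in all libraries of a group. Adipocyte markers were called higher in 4 of 5 in each limb muscle and lower in 1 of 5 in the diaphragm, and 7 of 7 denervation genes were called higher in all 4 muscles. Over all genes tested, 15.1% were called higher in the gastrocnemius, 17.2% in the tibialis anterior and 9.21% in the soleus. In the diaphragm 3.27% were higher and 4.25% lower. The part of these cells and of denervation in the changes of the 8 genes was not tested.

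A gene was called where the limma-voom adjusted p was below 0.05 and the change over 1.5-fold. At 27 against 6 months, 4 of the 5 members tested were called in the tibialis anterior, where the share over all genes was 27.6%. In the gastrocnemius 4 of 6 were called (22.8% of all genes), and in the soleus 5 of 7 (15.0%). In the diaphragm none of 6 was called (7.52% of all genes) by limma-voom, 3 had an unadjusted p below 0.05, and edgeR and DESeq2 each called 1. By direction, the members higher and lower numbered 2 and 2 for the tibialis anterior, 2 and 2 for the gastrocnemius, 4 and 1 for the soleus and 0 and 0 for the diaphragm. In the same order the shares of all genes were 17.2% higher and 10.4% lower, 15.1% and 7.76%, 9.21% and 5.78%, and 3.27% and 4.25%. The median log2 change over the members tested was 0.18 for the tibialis anterior, 0.43 for the gastrocnemius, 0.95 for the soleus and -0.12 for the diaphragm. The members' counts and medians are over those that passed the filter and support nothing by themselves, and Gdf15 was among them in the diaphragm, gastrocnemius and soleus.

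At earlier ages the calls were as follows. In the gastrocnemius 1 of 6 members was called at 9 months (Atf3; 0.143% of all genes), 1 at 12 months (Chac1; 0.885%), 1 at 18 months (Chac1; 4.32%), 2 at 21 months (Chac1 and Gdf15; 5.81%) and 4 at 24 months (18.8%). Chac1 was in the tibialis anterior the 1 member of 5 called at 12 months (0.196%, a contrast that cannot be told apart from the series of sample numbers), 18 months (5.45%) and 21 months (6.47%), and 4 were called at 24 months (14.5%). In the soleus 1 of 7 was called at 24 months (Atf3, log2 change 1.55, SE 0.41; 6.51%), and in the diaphragm 2 of 6 (Gdf15, whose call was lost with no filter, and Chac1; 2.68%). Between 24 and 27 months 1 member was called in the tibialis anterior (Atf4; 6.08%), 1 in the soleus (Chac1; 4.52%) and 1 in the diaphragm (Chac1, by limma-voom and not by edgeR or DESeq2; 4.39%).

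**Figure D3:**
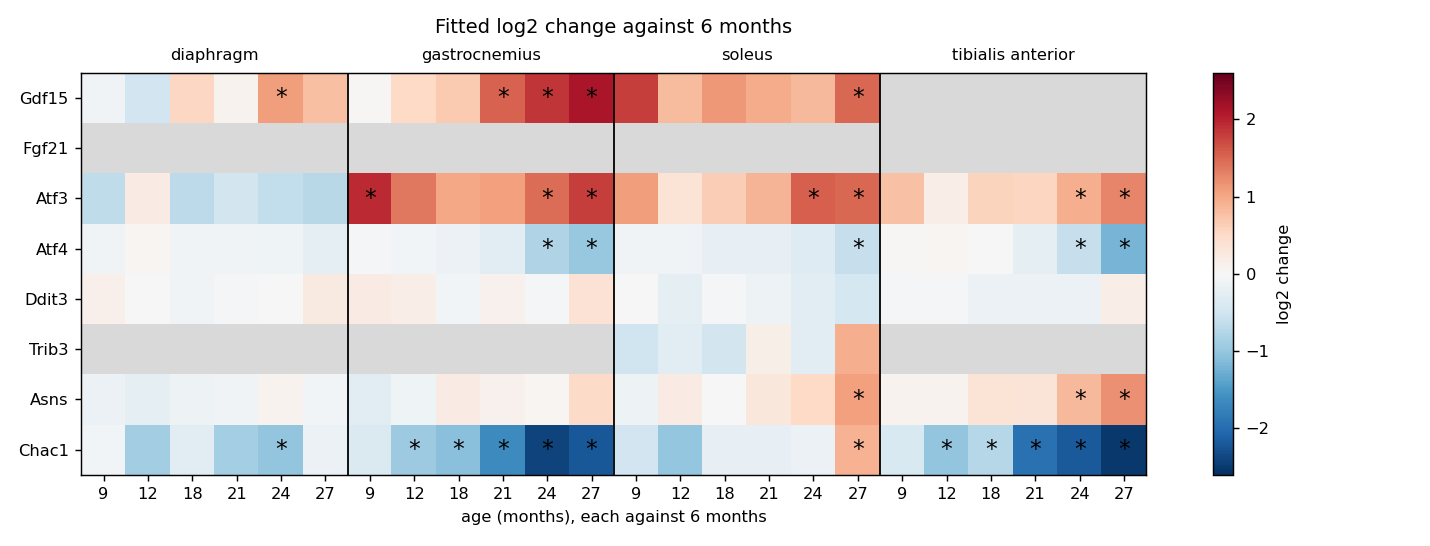
Fitted log2 change of each member against 6 months (colour scale), by age and muscle; grey cells are members that did not pass the filter on low counts in that muscle, and a star marks a called change. At 27 months Chac1 is at -2.20 in the gastrocnemius and -2.52 in the tibialis anterior but at 0.90 in the soleus, and Atf4 is below 0 in all 4 muscles.

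Whether muscles changed differently was tested in 1 fit of all libraries. The contrast set the change from 6 to 27 months in one muscle against that in another. The filter on low counts was applied over all muscles together, and every member passed it. Fgf21, at most 0.291 CPM at 6 months and up to 0.913 CPM in the tibialis anterior at 27 months, passed through older libraries. Its place among the genes tested was thus tied to its level there. Of 48 such differences between muscles 18 were called. Chac1 separated the soleus from the gastrocnemius by 3.09 on the log2 scale (SE 0.45, limma-voom adjusted p = 1.3e-09) and the tibialis anterior from the soleus by -3.40 (SE 0.46, adjusted p = 4.5e-11). Atf4 fell further than in the diaphragm in the tibialis anterior (difference -1.03, SE 0.12, adjusted p = 7.4e-15) and gastrocnemius (-0.79, SE 0.12, adjusted p = 3.2e-09), and further in the tibialis anterior than in the soleus (-0.61, SE 0.12, adjusted p = 2.8e-06). The soleus fall against the diaphragm was -0.41 (SE 0.12, adjusted p = 0.0025), short of 1.5-fold. Fgf21 rose more in the tibialis anterior than in the soleus (2.80, SE 0.71, adjusted p = 0.00053), gastrocnemius (2.05, SE 0.69, adjusted p = 0.015) or diaphragm (1.81, SE 0.65, adjusted p = 0.015). The Fgf21 difference from the gastrocnemius was not called with no filter (1.74, adjusted p = 0.11), with edgeR (1.66, adjusted p = 0.093) or with sample quality weights (1.19, adjusted p = 0.22). That from the diaphragm was not called with no filter (1.63, adjusted p = 0.081) or with edgeR (1.66, adjusted p = 0.054), and none of the 3 was called under Bonferroni.

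The change of Ddit3 in the soleus lay below that in the gastrocnemius (difference -0.82, SE 0.13, limma-voom adjusted p = 7.0e-08) and below that in the diaphragm (-0.73, SE 0.12, adjusted p = 2.0e-07), and the tibialis anterior exceeded the soleus by 0.63 (SE 0.13, adjusted p = 2.1e-05). Asns rose more than in the diaphragm in the soleus (1.09, SE 0.23, adjusted p = 2.6e-05) and tibialis anterior (1.22, SE 0.30, adjusted p = 0.00021), and without diaphragm 6-month replicate 0 these differences were 0.80 (adjusted p = 0.0015) and 0.94 (adjusted p = 0.0029). The change of Atf3 exceeded that of the diaphragm by 2.48 (gastrocnemius), 2.15 (soleus) and 1.94 (tibialis anterior). Without that library the differences were 1.99, 1.66 and 1.45, all still called. For Gdf15 and Trib3 no difference between muscles was called: the gastrocnemius change of Gdf15 exceeded that of the diaphragm by 1.29 (SE 0.66, adjusted p = 0.093). Against the diaphragm, the members called numbered 3 for the gastrocnemius (21.6% of all genes called), 3 for the soleus (11.9%) and 5 for the tibialis anterior (20.3%). They numbered 2 for soleus against gastrocnemius (14.5%), 1 for tibialis anterior against gastrocnemius (7.32%) and 4 for tibialis anterior against soleus (15.8%).

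The muscles differed in these genes already at 6 months. Chac1 was highest in the gastrocnemius (median 55.1 CPM) and tibialis anterior (42.9 CPM), which did not differ beyond their spread (log2 difference of tibialis anterior from gastrocnemius -0.41, SE 0.23, limma-voom adjusted p = 0.13), followed by the diaphragm (13.2 CPM) and the soleus (5.54 CPM). On the log2 scale the gastrocnemius differed from the diaphragm by 2.35 (SE 0.27, adjusted p = 5.7e-16) and the soleus by -1.29 (SE 0.35, adjusted p = 0.00058). By 27 months the medians of all 4 muscles were between 8.29 and 14.6 CPM. Asns was higher in the diaphragm and soleus than in the gastrocnemius and tibialis anterior, with medians of 2.77 CPM in the diaphragm and 2.65 in the soleus, which were not called apart (log2 difference -0.33, SE 0.17, adjusted p = 0.089), and of 0.954 in the gastrocnemius and 0.812 in the tibialis anterior (-0.16, SE 0.29, adjusted p = 0.67).

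Atf4 at 6 months was higher in the tibialis anterior than in the diaphragm by 0.70 (SE 0.08, limma-voom adjusted p = 1.1e-14) and than in the soleus by 0.68 (SE 0.08, adjusted p = 4.5e-14). The soleus and diaphragm did not differ beyond their spread (0.02, SE 0.08, adjusted p = 0.84). Ddit3 was higher in the soleus than in the gastrocnemius (0.86, SE 0.10) and lower in the tibialis anterior than in the soleus (-0.83, SE 0.09). Trib3 was lower in the tibialis anterior than in each of the other muscles, with differences of -1.12 from the diaphragm (SE 0.53, adjusted p = 0.0498, and 0.089 without diaphragm replicate 0), -1.61 from the gastrocnemius (SE 0.54) and -1.76 from the soleus (SE 0.51). Gdf15 was lower in the tibialis anterior than in the soleus (-1.301, SE 0.56, adjusted p = 0.028). Atf3 was lower there than in the diaphragm (-1.39, SE 0.46, adjusted p = 0.0043), a difference of -0.91 (adjusted p = 0.068) without diaphragm replicate 0. Fgf21 differed between no pair. Fitted by muscle, Trib3 passed the filter on low counts in the soleus alone, and Gdf15 did not pass it in the tibialis anterior. Their places in the joint fit were thus tied to muscles other than the tibialis anterior. The differences of Trib3 and Gdf15 given here rest on few counts per library and support nothing by themselves. The members called against the diaphragm were 2 for the gastrocnemius (37.3% of all genes), 1 for the soleus (23.9%) and 5 for the tibialis anterior (35.1%). They were 3 for soleus against gastrocnemius (45.4%), 1 for tibialis anterior against gastrocnemius (17.3%) and 6 for tibialis anterior against soleus (42.9%).

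Each member tested was also assigned to the best of a null, a linear and a 4-parameter logistic model of level on age by the Bayesian information criterion (BIC), a class with no p. Atf4 followed a falling logistic course with an inflection at 22.5 months in the gastrocnemius and at 27 months, the end of the range, in the tibialis anterior, and a falling line in the diaphragm and soleus. Chac1 followed a falling line in the gastrocnemius and tibialis anterior (-0.11 on the log2 scale per month in both) and a late rise, with its inflection at 27 months, in the soleus. Asns followed a late rise in the soleus and a rising line in the tibialis anterior. Gdf15 followed a rising line in the diaphragm and gastrocnemius, Atf3 in the soleus and tibialis anterior, and Ddit3 a falling line in the soleus. Members with a trend numbered 2 of 6 (diaphragm), 3 of 6 (gastrocnemius), 5 of 7 (soleus) and 4 of 5 (tibialis anterior). The share of all genes with a trend was not computed, so these counts say nothing particular to the members.

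Rats of 1 age differed among themselves, and within ages members were compared across the libraries of a muscle after the mean of each age was removed from the log2 CPM. In all, 61 pairs of members and 24 pairs of a member with Chrnd were tested, each with 100000 permutations of libraries within ages and Benjamini-Hochberg adjustment within each family. Genes of 1 library share its depth and composition. The strongest relation was that of Atf4 with Chrnd in the tibialis anterior (n = 85). Chrnd encodes the delta subunit of the muscle acetylcholine receptor, and the study used it as a marker of myofibre denervation. In the tibialis anterior r was -0.626 and rho -0.602 (permutation p = 1e-05 for both, the smallest they can give, adjusted p = 0.00012 and 0.00024), and r was -0.623 without the 2 farthest libraries. In the gastrocnemius (n = 73) r was -0.537 and rho -0.381 (permutation p = 1e-05 and 0.00245, adjusted p = 0.00012 and 0.012), and -0.484 without the 2 farthest. In the diaphragm (n = 83) r was -0.362 and rho -0.329 (permutation p = 0.00182 and 0.00337, adjusted p = 0.00874 and 0.0135), and -0.286 without them. Among libraries of 24 and 27 months alone, r was -0.749 in the tibialis anterior (n = 24) and -0.729 in the gastrocnemius (n = 20). In the soleus Atf4 had r = -0.284 and rho = -0.215 with Chrnd (n = 84, permutation p = 0.0216 and 0.0684, adjusted p = 0.0577 and 0.164, r = -0.195 without the 2 farthest), short of the threshold. Ddit3 passed it there ( r = -0.376, rho = -0.380, permutation p = 0.00115 and 0.00074, adjusted p = 0.00874 and 0.00888, r = -0.364 without the 2 farthest).

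Within ages, Chac1 and Asns were related to Atf4 with opposite signs in the tibialis anterior, and in no other muscle past the threshold. Chac1 in the tibialis anterior (n = 85) was related to Atf4 with r = 0.510 and rho = 0.337 (permutation p = 3e-05 and 0.00239, adjusted p = 0.000915 and 0.0292, r = 0.447 without the 2 farthest), and Asns with r = -0.427 and rho = -0.348 (permutation p = 0.00017 and 0.00189, adjusted p = 0.00259 and 0.0292, r = -0.378 without the 2 farthest). Elsewhere r of Atf4 with Chac1 was 0.233 (gastrocnemius, n = 73, rho = 0.224, permutation p = 0.0465 and 0.0623, adjusted p = 0.236 and 0.38), -0.0507 (diaphragm, n = 83, rho = -0.0253, permutation p = 0.668 and 0.827, adjusted p = 0.903 and 0.933) and -0.175 (soleus, n = 84, rho = -0.169, permutation p = 0.161 and 0.144, adjusted p = 0.527 and 0.463). Without the 2 farthest libraries these r were 0.223, -0.0393 and -0.194. Single libraries show the span. At 24 months the tibialis anterior library with the least Atf4 (120.6 CPM) had 3.40 CPM of Chac1 and 2.35 CPM of Asns, and its Chrnd lay 0.54 above the age mean on the log2 scale. The library with the most Atf4 (377.9 CPM) had 13.6 CPM of Chac1 and 0.923 CPM of Asns, with Chrnd 0.76 below the mean. At 27 months the library with the least Atf4 (115.7 CPM) had 1.995 CPM of Chac1 and 3.08 CPM of Asns. It also had the highest Fgf21 of its group (0.913 CPM). The one with the most Atf4 (294.0 CPM) had 15.2 CPM of Chac1, 1.19 CPM of Asns and the lowest Fgf21 (0.108 CPM). That library also held the most hepatocyte transcripts of its group (375.8 CPM summed). The libraries second lowest and second highest in Atf4 (118.0 and 244.9 CPM) kept the order for Chac1 (3.04 and 15.4 CPM). For Asns they did not (1.52 and 1.62 CPM).

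**Figure D4:**
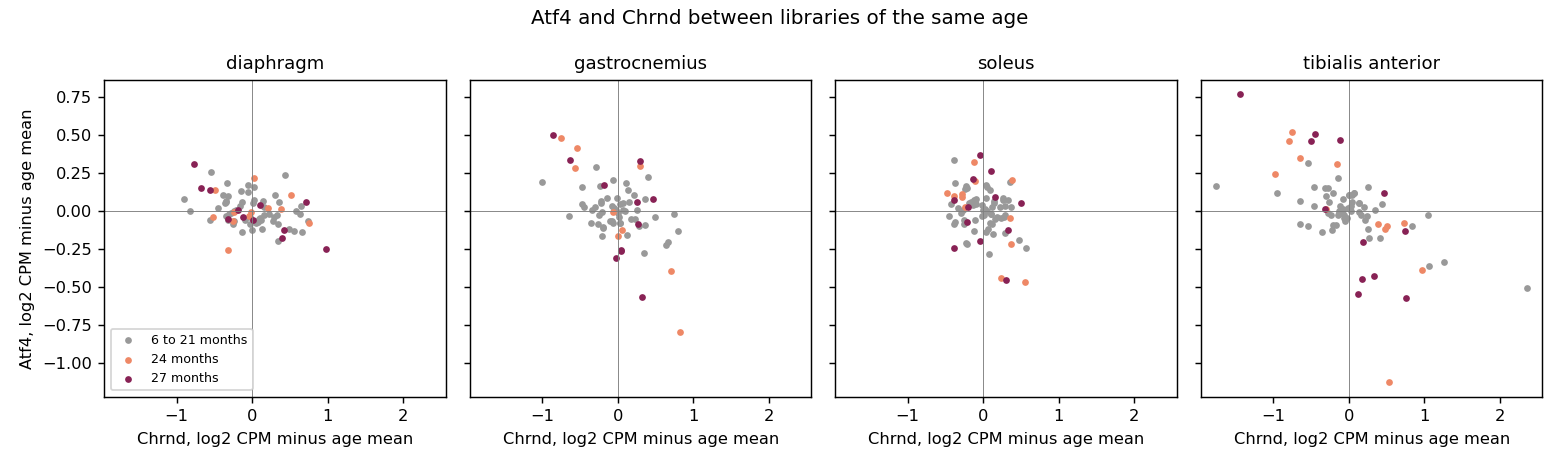
Atf4 against Chrnd in each library, 1 panel per muscle, both as log2 CPM minus the mean of the library's age and muscle; libraries of 24 and 27 months are coloured. The points slope downwards in the tibialis anterior (r = -0.626), gastrocnemius (r = -0.537) and diaphragm (r = -0.362).

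Another pair past both adjusted thresholds was Atf4 with Ddit3 in the soleus (n = 84, r = 0.584, rho = 0.526, permutation p = 1e-05 for both, the smallest possible, adjusted p = 0.00061 for both, r = 0.612 without the 2 farthest). Further pairs were Atf3 with Atf4 in the diaphragm (n = 83, r = 0.405, rho = 0.332, permutation p = 5e-05 and 0.00197, adjusted p = 0.00102 and 0.0292, r = 0.359 without them) and Gdf15 with Atf3 in the gastrocnemius (n = 73, r = 0.361, rho = 0.420, permutation p = 0.0015 and 0.00035, adjusted p = 0.0183 and 0.0107, r = 0.30 without them). Gdf15 was also related to Chrnd in the gastrocnemius (r = 0.325, rho = 0.381, permutation p = 0.0076 and 0.00135, adjusted p = 0.0261 and 0.0108, r = 0.310 without the 2 farthest). Asns was related to Chrnd in the tibialis anterior (r = 0.381, rho = 0.340, permutation p = 0.00154 and 0.0025, adjusted p = 0.00874 and 0.012, r = 0.379 without them).

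The genes most like each member over the 28 means of muscle and age, each centred on its muscle, were sought among 11517 genes tested in all 4 muscles, as a description with no p. Atf4 was most like Atmin (r = 0.986), Lpin1 (0.984) and Pnrc1 (0.983). Chac1 was most like Eef2k (0.897), Alg2 (0.894) and Gadd45g (0.888), Asns like Adora1 (0.946), Cebpa (0.940) and Cdc42ep4 (0.912), and Atf3 like Btg2 (0.842), Ier5 (0.788) and Egr2 (0.787). By the same measure Atf4 stood at 0.615 with Chac1 and at -0.80 with Asns. Gdf15 was not tested in the tibialis anterior and had no value.

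The wider pathway was described by 81 further genes of the response, of which 74 were tested in each muscle. At 27 months the diaphragm had 4 called higher and 4 lower, the gastrocnemius 9 and 6, the soleus 8 and 7 and the tibialis anterior 13 and 9. Over all genes tested, the shares called in either direction were 7.52%, 22.8%, 15.0% and 27.6% in that order. The counts of the single lists below stand beside the same shares. The median log2 changes of the list were 0.04, -0.04, -0.01 and 0.01 in that order, beside 0.00, 0.04, 0.02 and 0.02 over all genes tested. Of the 12 enzymes of amino acid synthesis and one-carbon metabolism, the diaphragm had 2 higher and 1 lower, the gastrocnemius 3 and 2, and the soleus and tibialis anterior 4 and 1 each (medians -0.01, 0.18, 0.14 and 0.32). Mthfd1l, a mitochondrial folate enzyme, rose in all 4 muscles, by 1.22 (SE 0.12), 2.11 (SE 0.18), 1.504 (SE 0.17) and 2.28 (SE 0.19) on the log2 scale, with limma-voom adjusted p of 1.1e-13, 3.2e-16, 4.9e-12 and 6.8e-18. Phgdh, which opens serine synthesis, rose by 1.26 (SE 0.22) in the soleus, and Cth, of cysteine synthesis, rose by 0.80 (SE 0.18) in the diaphragm and fell by 0.97 (SE 0.33) in the soleus. Gpt2, an alanine transaminase, fell by 1.32 (SE 0.15) in the gastrocnemius and by 1.14 (SE 0.15) in the tibialis anterior, and Aldh1l2 fell by 0.67 (SE 0.22) in the diaphragm.

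Of 7 amino acid transporters tested, the diaphragm had 0 called, the gastrocnemius and soleus 2 higher and 0 lower each, and the tibialis anterior 4 higher and 1 lower. The tibialis anterior median was 0.95. Slc7a5, the large neutral amino acid transporter, rose by 2.65 in the tibialis anterior (SE 0.22, limma-voom adjusted p = 3.3e-18). It rose by 1.17 (SE 0.14) for the gastrocnemius and 1.07 (SE 0.21) for the soleus. Slc6a9, a glycine transporter, rose by 1.45 (SE 0.16) in the tibialis anterior and 1.18 (SE 0.21) in the gastrocnemius. Among 8 other ATF4 targets, Herpud1, of the degradation of endoplasmic reticulum proteins, rose by 0.77 (SE 0.06) in the diaphragm, and Vldlr, a lipoprotein receptor, fell by 0.77 (SE 0.06) in the soleus and 1.11 (SE 0.09) in the tibialis anterior. These were called the same way in the remaining muscles, with log2 changes for Herpud1 of 0.82 (gastrocnemius), 0.77 (soleus) and 0.92 (tibialis anterior). For Vldlr they were -0.62 (diaphragm) and -0.79 (gastrocnemius). These values are named after they were seen. Stc2, a secreted glycoprotein, fell by 0.97 (SE 0.17) in the gastrocnemius. The counts of this list were 2 higher and 1 lower, 1 and 2, 1 and 2, and 1 and 3 in the order diaphragm, gastrocnemius, soleus and tibialis anterior.

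The remaining lists held upstream and parallel genes and the receptors. Of 5 eIF2alpha kinases and their activators tested, Eif2ak2, the kinase that senses double-stranded RNA, fell by 0.85 (SE 0.13) in the diaphragm and was called 0.64 (SE 0.21) higher in the gastrocnemius, the latter named after its value was seen, and none was called in the soleus or tibialis anterior. Of 9 subunits and phosphatases of eIF2 and eIF2B, 1 was called, lower, in the tibialis anterior. Of 14 genes of the unfolded protein response of the endoplasmic reticulum, the diaphragm and soleus had 0 called, the gastrocnemius 1 higher, and the tibialis anterior 2 higher and 2 lower. Of 9 mitochondrial chaperones and proteases, none was higher in any muscle, 1 was lower in the diaphragm (Yme1l1, -0.72, SE 0.11) and 2 in the soleus, and the medians were -0.11, -0.14, -0.27 and -0.33 in the order above. Of 5 other stress-response transcription factors, 1 was lower in the soleus (Atf5, -0.65, SE 0.08) and 1 higher in the tibialis anterior (Nupr1, 0.87, SE 0.13), both named after their values were seen. Of 5 receptor genes for the mitokines tested, Ret, the signalling subunit of the GDF15 receptor, fell in the limb muscles, by 1.06 (SE 0.10) for the gastrocnemius, 0.86 (SE 0.11) for the soleus and 1.18 (SE 0.14) for the tibialis anterior. Receptor genes called higher and lower numbered 0 and 0 for the diaphragm, 1 and 2 for the gastrocnemius, and 1 and 1 for the soleus and for the tibialis anterior.

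**Figure D5:**
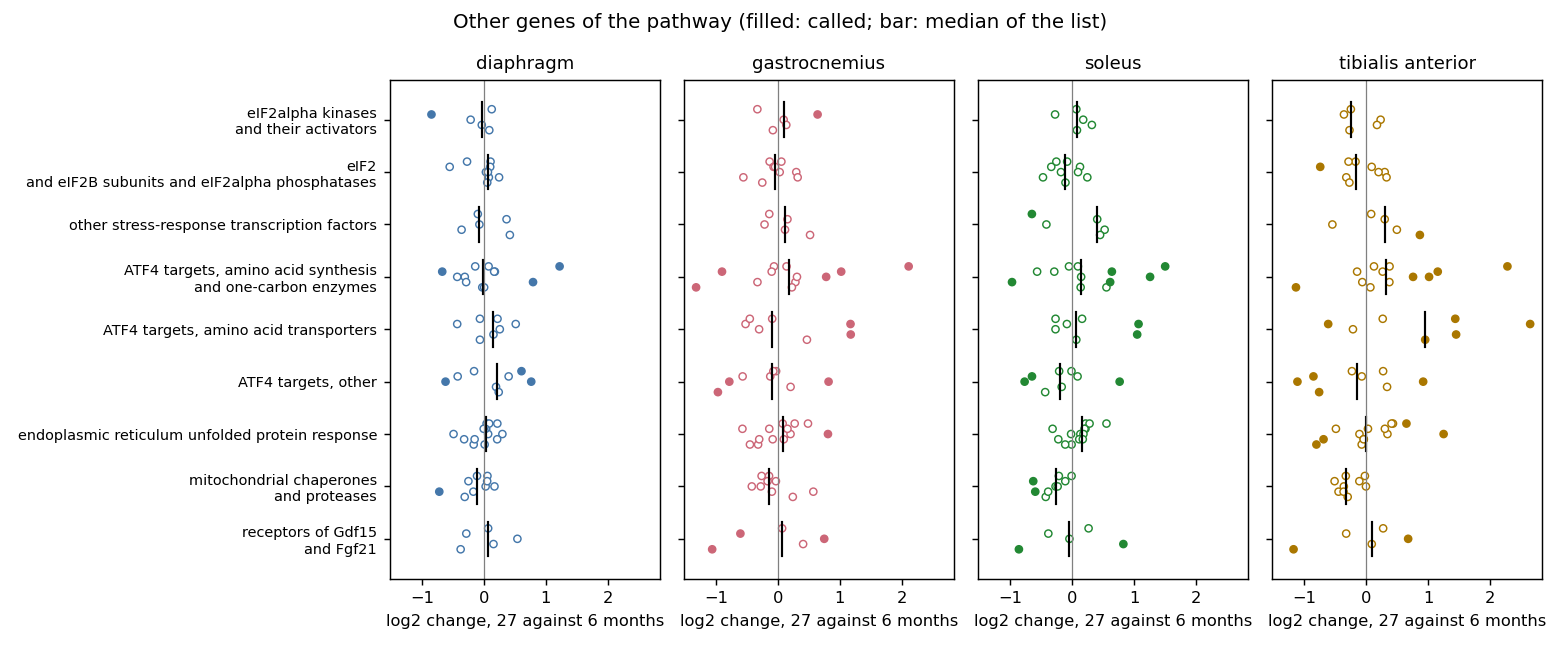
Fitted log2 change from 6 to 27 months of the other pathway genes, grouped by list, 1 panel per muscle; each point is a gene, filled where called, and the bar is the list's median. The amino acid synthesis and transporter lists hold the highest points (Slc7a5 at 2.65 and Mthfd1l at 2.28 in the tibialis anterior), while the medians of the mitochondrial chaperones lie below 0 in all 4 muscles.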

How the data were processed

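Per the labels and the study's methods, total RNA was depleted of ribosomal RNA, made into stranded libraries and sequenced in pairs, and the authors counted reads per gene with the ArrayStudio pipeline, the B6.0 rat genome and an in-house gene model based on RefSeq. The deposited values are raw counts, 1 table per library, with 17870 lines, no line without a name and no unused column (0). Symbols on more than 1 line (494) were summed; none was a member.

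The members and gene lists were chosen with earlier results of these data known. Each muscle was fitted on its own with limma-voom (limma 3.58.1, edgeR 4.0.16, R 4.3.3), with TMM scaling, a filter on low counts (filterByExpr by age, minimum 10 counts, 15 in total), a prior of 0.5 counts and Benjamini-Hochberg adjustment over all genes tested (11754 to 12175). The study's methods name Bonferroni, which is an alternative here. Differences between muscles came from 1 limma-voom fit of 325 libraries in 28 groups (12784 genes), filtered in the same way by muscle and age. Trend classes needed a BIC more than 6 below the null, and logistic more than 2 below linear, with inflections before 12 months early and after 21 late. Correlations were permuted in Python 3.11.15 (numpy 2.4.6, scipy 1.17.1). Genes named were the members, Chrnd, Myh and the 3 largest called rises and falls among pathway genes per muscle, plus 3 genes most like each called member. List genes not found among the symbols are not analysed here. Promoters were from RefSeq (GRCr8). Steps were tested on simulated data. Libraries of 17.6 M to 85.3 M counts leave Fgf21, Trib3 and Gdf15 at a few counts each, and their precision is limited by that. Alternatives were other scalings (RLE, total counts), no filter, edgeR, DESeq2 1.42.0, Bonferroni, 2-fold, sample weights, a replicate block, 2 ages alone and leaving out libraries; an immediate-early covariate and the removal of libraries high in hepatocyte markers, of diaphragm replicate 0 or of the 21-month library of the third series were chosen after seeing the data.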

Additional observations from a re-analysis of the deposited data

Results flagged for a closer look

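The change of a member from 6 to 27 months differed between a pair of muscles in 18 of 48 tests of the difference itself (limma-voom, 1 fit of all libraries). Gastrocnemius minus diaphragm gave 2.48 for Atf3, -0.79 for Atf4 and -2.09 for Chac1 on the log2 scale (adjusted p = 7.7e-05, 3.2e-09 and 1.5e-06). Soleus minus diaphragm gave 1.09 for Asns, 2.15 for Atf3 and -0.73 for Ddit3 (adjusted p = 2.6e-05, 0.0011 and 2.0e-07). Tibialis anterior minus diaphragm gave 1.22 for Asns, 1.94 for Atf3, -1.03 for Atf4, -2.41 for Chac1 and 1.81 for Fgf21 (adjusted p = 0.00021, 0.0051, 7.4e-15, 1.1e-07 and 0.015). Soleus minus gastrocnemius gave 3.09 for Chac1 and -0.82 for Ddit3 (adjusted p = 1.3e-09 and 7.0e-08), and tibialis anterior minus gastrocnemius gave 2.05 for Fgf21 (adjusted p = 0.015), which was not called under Bonferroni, with no filter, with edgeR or with sample quality weights. Tibialis anterior minus soleus gave -0.61 for Atf4, -3.40 for Chac1, 0.63 for Ddit3 and 2.80 for Fgf21 (adjusted p = 2.8e-06, 4.5e-11, 2.1e-05 and 0.00053). Contrasts with the gastrocnemius cannot be told apart from the series of sample numbers. Fgf21 passed the filter of that fit through older libraries, so its place among the genes tested was tied to its level there. In 18 tests of a member in a gastrocnemius group of 9 or 10 libraries, 0 libraries stood far from the others.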

How the results depend on the processing

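Of 1110 values of single members under an alternative, 950 kept their direction and side of the threshold, 53 passed a threshold they had missed, 93 fell short of it, 11 correlations moved (10 at 24 and 27 months alone and 1 with total-count scaling) and 3 changed sign: Asns in the diaphragm (0.12 with sample quality weights), the level of Atf3 at 6 months in the gastrocnemius against the diaphragm (0.0337 without diaphragm replicate 0) and Atf3 with Chrnd in the diaphragm (r = 0.0352 at 24 and 27 months alone). Of 558 fits that left out a library, 550 kept the call, and without diaphragm 6-month replicate 0 Asns in the diaphragm changed sign (0.22, lowest -0.29). Members called at 27 against 6 months in the diaphragm numbered 1 in place of 0 with edgeR, DESeq2, the replicate block or the immediate-early covariate, and 0 to 1 when a library was left out. In the soleus 5 became 2 under Bonferroni, the covariate or without libraries high in hepatocyte markers and 3 at 2-fold (4 to 6 when a library was left out), and in the tibialis anterior 4 became 7 with no filter, in which 3 more members were tested. In the gastrocnemius the count was 4 to 5 with a library left out. Differences in change became 2 in place of 5 under Bonferroni (tibialis anterior against diaphragm), 1 in place of 2 at 2-fold (soleus against gastrocnemius), 0 in place of 1 under Bonferroni, no filter, edgeR or sample weights (tibialis anterior against gastrocnemius) and 2 in place of 4 at 2-fold (tibialis anterior against soleus). Differences in level became 4 in place of 2 with total-count scaling (gastrocnemius against diaphragm), 0 under Bonferroni and 2 with edgeR, sample weights or the replicate block in place of 1 (soleus against diaphragm), 3 in place of 5 under Bonferroni or without diaphragm replicate 0 (tibialis anterior against diaphragm), and 0 under Bonferroni and 2 with edgeR in place of 1 (tibialis anterior against gastrocnemius). Trends in the gastrocnemius were 5 in place of 3 with total-count scaling. With total-count scaling the median over all genes, at 27 against 6 months, moved from 0.04 to 0.32 in the gastrocnemius, 0.02 to 0.16 in the soleus and 0.02 to 0.34 in the tibialis anterior, and the share of called genes that were higher from 66.0% to 90.0%, 61.4% to 77.7% and 62.4% to 89.1%. The cause of these shifts was not tested. The numbers were not taken as pairs, since the correlation of deviations was over 0.1 in 259 of 468 same-numbered pairs of different muscles and not in all. It was over 0.1 in 12 of 12 for diaphragm with tibialis anterior at 12 and 24 months and soleus with tibialis anterior at 24 months. In all, 171 of 468 correlated best with their own number. For soleus with tibialis anterior it was 10 of 12 at 6 and at 9 months and 0 of 12 at 12 months. Between 6 and 27 months of 1 muscle it was 2 of 12 (diaphragm), 1 of 10 (gastrocnemius), 4 of 12 (soleus) and 0 of 12 (tibialis anterior). This is a hint from the data, not the design, that some numbers mark 1 rat. Without the replicate block, the tests between muscles treat all libraries as independent. Beyond the counts given, the replicate block changed 9 of 104 values of single members across the threshold. Depth limits Fgf21, Trib3 and Gdf15, for which smaller changes were not detectable.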

Other observations

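The remaining cell marker lists are given as values for the same libraries. Over all genes tested, 3.27% were called higher and 4.25% lower in the diaphragm, and 15.1% and 7.76% in the gastrocnemius. The shares were 9.21% and 5.78% in the soleus, and 17.2% and 10.4% in the tibialis anterior. Counts of 1 among a few markers say little beside these shares. At 27 against 6 months, T cell markers were called higher in 2 of 4 tested in the diaphragm, 1 of 2 in the gastrocnemius, 1 of 2 in the soleus and 2 of 2 in the tibialis anterior, at summed levels of no more than 5.10 CPM at 27 months. Fibroblast markers were called lower in 2 of 4 in the diaphragm, 1 of 4 in the gastrocnemius, 1 of 4 in the soleus and 0 of 4 in the tibialis anterior. Endothelial markers were called lower in 0, 1, 1 and 1 of 4 in the same order. Schwann cell markers were called higher in 1 and lower in 1 of 4 in the gastrocnemius and higher in 1 of 4 in the tibialis anterior. Muscle fibre markers were called lower in 1 of 4 in the gastrocnemius and in 1 of 4 in the tibialis anterior. Hepatocyte markers were called lower in 5 of 8 tested in the soleus, where their summed level had a median of 116.9 CPM at 6 and 2.27 CPM at 27 months. The 1 mesothelial marker tested was lower in the soleus.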
